A study of Mus musculus with 1183 samples.

Results

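The 10 genes described here make, load and control the major histocompatibility complex (MHC) class I molecule: B2m, H2-K1, H2-D1, Tap1, Tap2, Tapbp, Psmb8, Psmb9, Psmb10 and Nlrc5. They were chosen by symbol, and all 10 have a row among the 18072 genes of the count table. MHC class I molecules show peptides from inside the cell to CD8 T cells and to natural killer cells. Peptides are cut by the proteasome, pumped into the endoplasmic reticulum by the transporter TAP, and loaded onto a heavy chain paired with beta-2 microglobulin. Dendritic cells are known for this pathway because they start T cell responses, and some of them also load peptides from material they have taken up.

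RNA was sequenced cell by cell for 1183 immune cells. They came from 2 mice of postnatal day 7, whose distal lungs were sampled, and both mice carry the label hyperoxia, which means exposure to raised oxygen. Cells were sorted into plates, all but 10 of them by CD45 (a surface protein of white blood cells), and turned into libraries with a Tn5 transposase. Strain and oxygen dose are not given in the sources used here, and with no air-exposed animal among the samples no effect of oxygen can be read. The first animal was female and the other male, so sex and animal cannot be told apart.

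The labels name 16 cell subtypes, 15 of which had at least 5 cells in each animal. These are Mac II to Mac V, DC I to DC III, B cell, T cell, NK cell, IL cell, neutrophil, basophil, mast cell and mast cell II, and Mac I had 1 cell. Reads were summed over the cells of a subtype in an animal, which gave 30 libraries of 6024429 to 235566546 reads, and the animal is the replicate (n = 2). Cells held 16753 to 7560179 reads, with a median of 1100966. Levels are reads of a gene per 1000000 reads (CPM) of a summed library. A sum over cells does not tell apart more cells with reads of a gene from more reads per cell, so shares of cells are given as well. In all, 4 markers per subtype were checked for 14 subtypes: all 4 were highest in their own subtype for 10 of them. For DC II, IL cell and Mac III this held for 3 of 4, and for mast cell II for 0 of 4.

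Of the 10 genes, 7 lie on mouse chromosome 17 in the GENCODE annotation of GRCm38, and Psmb9, Tap1, Psmb8 and Tap2 follow each other there between positions 34181987 and 34216321. B2m is on chromosome 2, and Psmb10 and Nlrc5 are on chromosome 8. Upstream sequence is shown for the 5 genes whose window held both a kappa B and a cyclic AMP response element (CRE) core match, because NF-kappaB and CRE-binding factors are known to act on class I genes through such stretches. RefSeq promoter windows (GRCm38.p6) were matched by symbol for 8 of the 10 genes, and not for Tap2 and Nlrc5. Only the first listed window of each gene was searched, so other starts of a gene are not covered. Capitals mark matches to a search on both strands of the 250 bases before each annotated start for an interferon response element (GAAA, any 2 bases, GAAA), a gamma activated site (TTCNNNGAA), a kappa B site (GGG, any 5 bases, CC) and the CRE core (TGACG); neighbouring kappa B matches overlap. The first 2 sequences are H2-K1 (chr17:34000374-34000484, minus strand) and H2-D1 (chr17:35262897-35263007, plus strand), the third is B2m (chr2:122147538-122147623, plus strand), and the fourth is the stretch between the divergent starts of Tap1 and Psmb9 (chr17:34187366-34187518, plus strand, read towards Tap1).
H2-K1: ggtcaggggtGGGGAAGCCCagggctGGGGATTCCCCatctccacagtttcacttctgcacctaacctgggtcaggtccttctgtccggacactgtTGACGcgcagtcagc
H2-D1: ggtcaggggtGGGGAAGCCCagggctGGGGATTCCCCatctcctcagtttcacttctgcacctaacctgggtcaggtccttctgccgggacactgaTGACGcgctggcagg
B2m: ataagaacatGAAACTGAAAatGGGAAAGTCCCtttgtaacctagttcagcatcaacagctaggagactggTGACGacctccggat
Tap1 and Psmb9: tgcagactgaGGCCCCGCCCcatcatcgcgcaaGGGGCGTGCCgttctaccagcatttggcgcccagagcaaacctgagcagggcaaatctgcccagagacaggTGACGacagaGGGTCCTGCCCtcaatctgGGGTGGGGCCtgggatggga

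The H2-K1 and H2-D1 stretches were 93.7% identical. Tap1 and Psmb9 start close to each other on opposite strands, so these genes share their upstream sequence. A kappa B match and a CRE core match were each found in 5 of the 8 windows, B2m, H2-K1, H2-D1, Tap1 and Psmb9, against 45.8% and 17.8% of 32851 windows of all genes. The interferon response element was matched in B2m only (2.98% of all windows), and the gamma activated site in Psmb8 only (7.02%). Variants of the letters given above were not searched, so a window without a match is not shown to lack such an element. Tapbp and Psmb10 had no match in the window searched. These matches are descriptions of letters and were not tested against the levels.

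Across the 15 subtypes, 8 of the 10 genes differed (edgeR quasi-likelihood test over 15600 genes, Benjamini-Hochberg adjusted p under 0.05), where 34.3% of all genes tested did. H2-K1 had the smallest adjusted p (2.69e-08) and Nlrc5 the largest of the 8 (0.0200). Tap2 (adjusted p = 0.240) and Psmb10 (0.481) did not pass. DC III had the highest mean level of 9 of the 10 genes, and for Psmb10 IL cell was highest. The plot of levels by subtype shows the same order gene by gene.

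**Figure D1:**
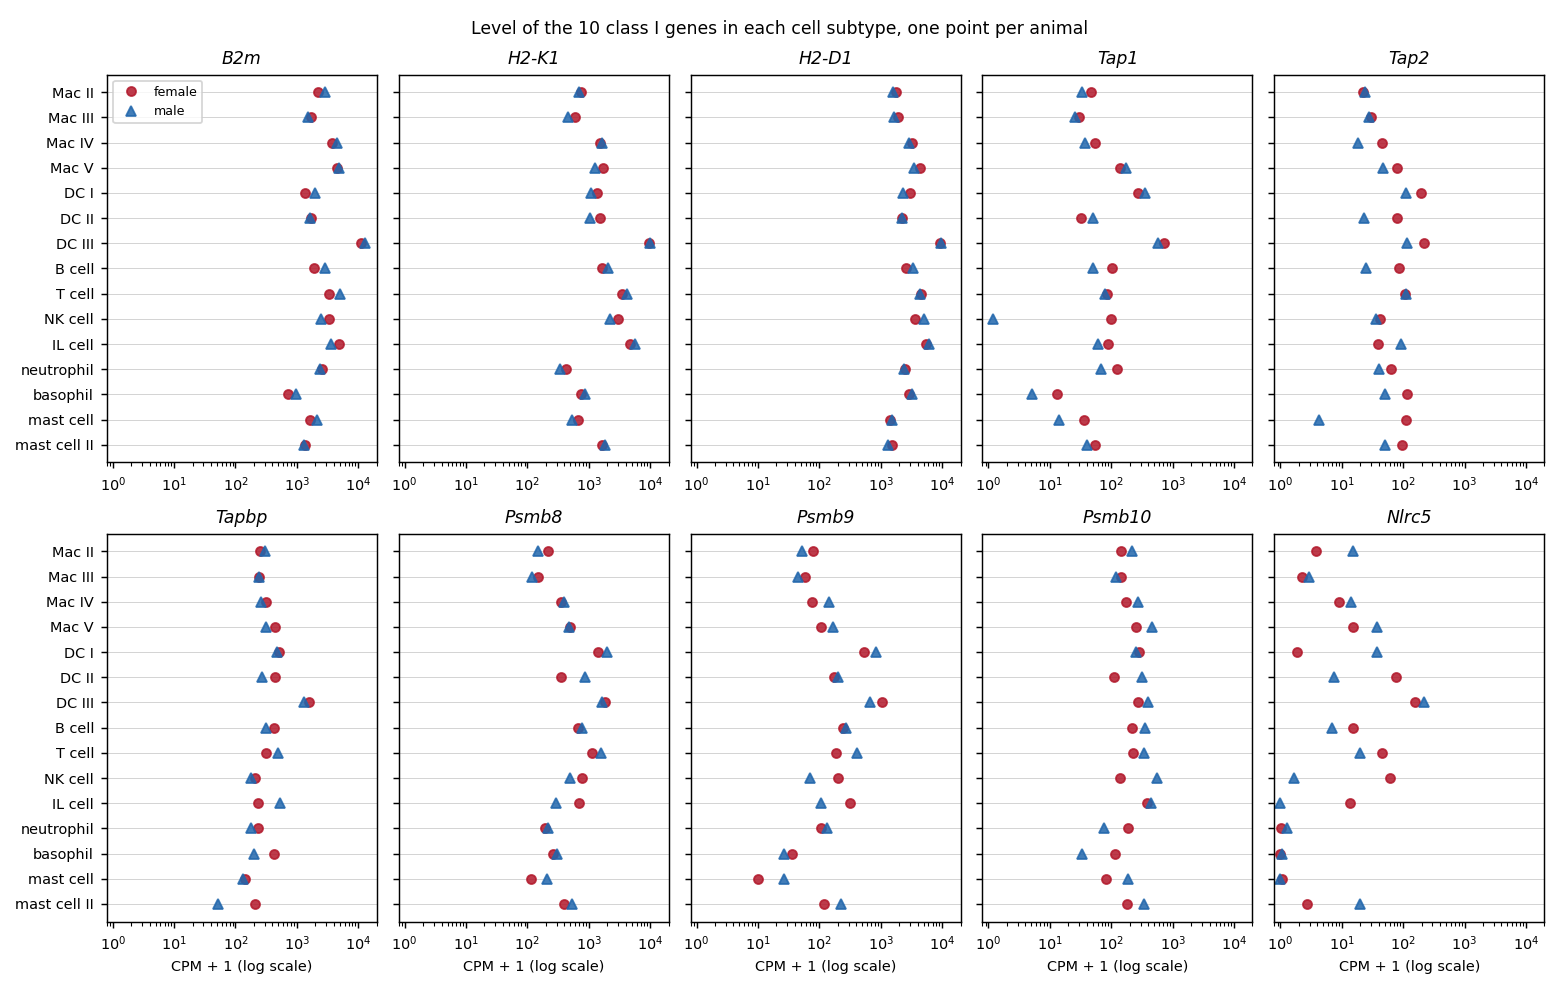
Level of each gene (x axis, CPM + 1, log scale) in 15 cell subtypes (y axis), with a circle for the female and a triangle for the male. Both DC III points of B2m, H2-K1 and H2-D1 lie between 9321 and 13017 CPM, to the right of every other subtype.

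B2m encodes beta-2 microglobulin, the light chain that all classical class I molecules need. In DC III its level in the 2 animals (female, then male, here and below) was 11011 and 13017 CPM. The next subtypes were Mac V (4448 and 4813 CPM), IL cell (4833 and 3661 CPM), T cell (3395 and 5025 CPM) and Mac IV (3708 and 4568 CPM), whose ranges over the animals overlapped. Basophils had the lowest level, 725 and 980.2 CPM. The mean of DC III was 14.1 times that of basophils, and between neighbours in the order of 15 subtypes only 4 of 14 steps had no overlap between the animals.

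H2-K1 and H2-D1 encode the classical heavy chains H-2K and H-2D, which hold the peptide. H2-K1 was at 9609 and 10011 CPM in DC III, at 4729 and 5741 CPM in IL cell, and at 3484 and 4142 CPM in T cell, and these 3 did not overlap. Neutrophils were lowest, at 426.4 and 337.3 CPM, next to Mac III at 592 and 464 CPM. H2-D1 was at 9321 and 9599.9 CPM in DC III and lowest in mast cell II, at 1508 and 1309.7 CPM. The spread over subtypes was 25.7-fold for H2-K1 and 6.71-fold for H2-D1. Of 50-base windows of their annotated transcripts, 9.63% for H2-K1 and 12.8% for H2-D1 also occur in another gene, mainly H2-Q10, H2-Q1, H2-Q7 or each other, so their counts and those of the H2-Q genes are uncertain to that extent.

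Tap1 and Tap2 encode the paired subunits of the peptide transporter, and Tapbp encodes tapasin, which holds the empty class I molecule beside it. Tap1 was at 714 and 577 CPM in DC III, 268.5 and 359.9 CPM in DC I, and a mean of 156.8 ± 26.5 CPM in Mac V (SD, n = 2), with no overlap between these subtypes. In NK cell the animals were far apart, at 99.2 and 0.166 CPM. Tapbp was at 1591 and 1317 CPM in DC III, and every other subtype lay at or below 539 CPM in both animals. Tap2 was at a mean of 164.4 ± 71.3 CPM in DC III (SD, n = 2), with the female higher, and at 196.2 and 108.4 CPM in DC I, and most neighbouring subtypes overlapped. A single cell gave more than 50% of the reads in 10 of 30 libraries for Tap1, in 7 for Tap2 and in 2 for Tapbp.

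Psmb8, Psmb9 and Psmb10 encode the catalytic subunits of the immunoproteasome, which take the places of the standard subunits Psmb5, Psmb6 and Psmb7. Psmb8 was at 1825 and 1666 CPM in DC III, 1418 and 1953 CPM in DC I and 1131 and 1563 CPM in T cell. It was lowest in Mac III, at 145.6 and 117.2 CPM. Psmb9 was at 1052 and 658 CPM in DC III and 536 and 851 CPM in DC I, and at 9 and 25.3 CPM in mast cell. Psmb8 and Psmb9 were thus high in both DC III and DC I, where the animals' ranges overlapped. Psmb10 ranged only 5.68-fold, from 381.9 and 443 CPM in IL cell to 113.2 and 32.2 CPM in basophil, and 13 of 14 neighbouring subtypes overlapped. A single cell gave more than 50% of the reads in 5 of 30 libraries for Psmb9, in 5 for Psmb10 and in 0 for Psmb8.

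Nlrc5 encodes the transactivator of class I genes. It was at a mean of 185.6 ± 47.2 CPM in DC III (SD, n = 2), with the female lower, and the next subtype, DC II, was at 74.2 and 6.44 CPM. In neutrophil, mast cell and basophil it was at 0.305 CPM or less in each library. A single cell gave more than 50% of the Nlrc5 reads in 17 of 30 libraries, so most of its levels outside DC III rest on a few cells.

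To see whether levels came from all cells or from a few, each cell was thinned to 100000 reads, and cells with at least 5 reads of a gene were counted; 5 shallower cells were left out. B2m passed in at least 84.2% of cells of every subtype and animal. H2-K1 passed in 41.8% and 55.1% of neutrophils (female and male) and in at least 76.5% of cells elsewhere. Nlrc5 passed in 81.8% and 63.6% of DC III cells and in 0% of neutrophils, basophils and mast cells of both animals. A count of 0 among the 55 and 78 neutrophils allows a share of up to 5.45% and 3.85% (3 cells of the total), for counting error only. Tap1 passed in 81.8% of DC III cells of each animal, in 75% and 79.2% of DC I cells and in 20.4% and 15.9% of Mac III cells. In 90 of 150 pairs of gene and subtype at least 50% of cells passed in both animals.

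**Figure D2:**
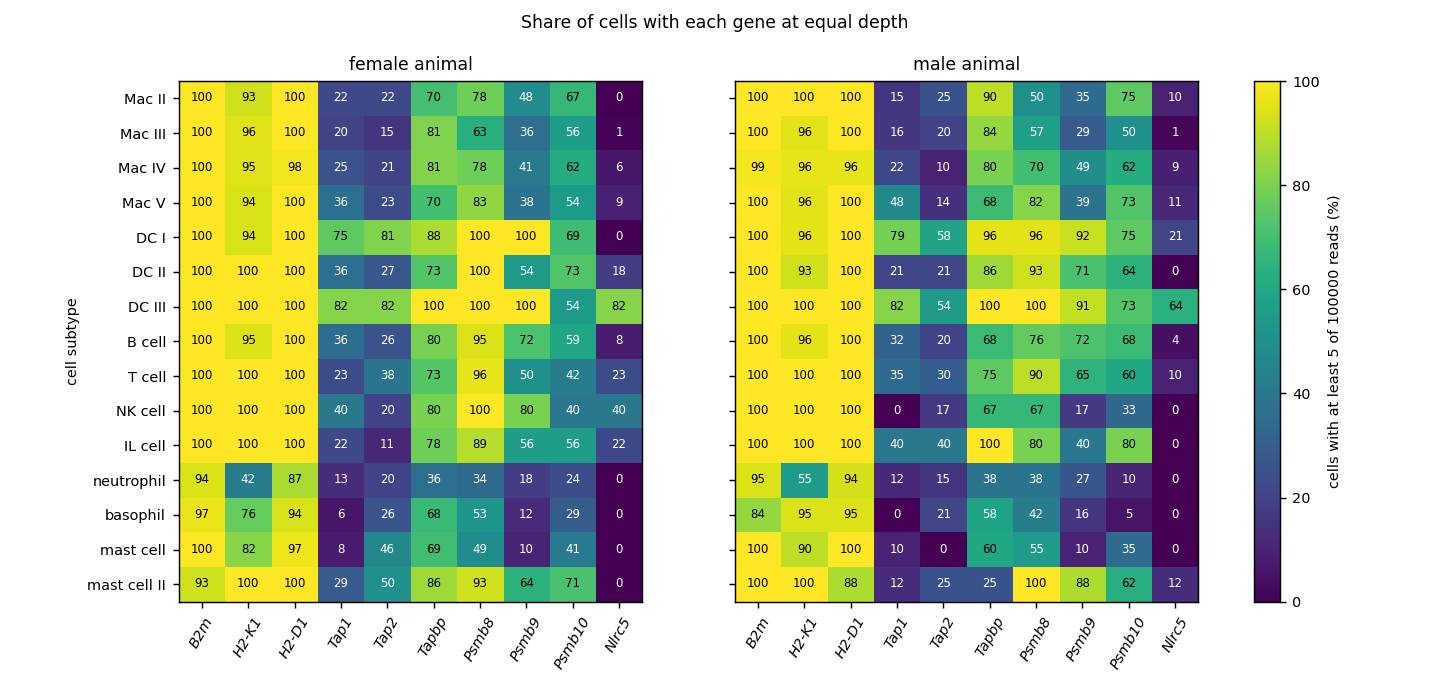
Share of cells (colour and number, percent) with at least 5 of 100000 reads of each gene (x axis) in each subtype (y axis), for the female and the male animal. Nlrc5 reaches 81.8% and 63.6% in DC III and stays at 40% or below in every other subtype.

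Counted per cell, DC III cells held a median of 9 of the 10 genes in each animal, and all 11 cells of each animal held at least 7 (exact binomial 95% interval 71.5 to 100%). In DC I 93.8% and 91.7% of cells held at least 7, in Mac III 23.8% and 20.2%, and in neutrophils 3.64% and 6.41%. Neutrophils had fewer reads per cell before thinning (median 589006) than Mac III (1108525); the counts above are at equal depth.

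The next question was how dendritic cell subtypes differ. DC III expressed the markers Ccr7, Fscn1, Ccl22 and Mreg, DC I expressed Clec9a and Xcr1, and DC II expressed Cd209a and Mgl2. Against DC I and DC II together, DC III was higher for 4 of the 10 genes, where 2.79% of 15600 genes were called higher, and no member was called lower. B2m rose by 3.14 on the log2 scale (SE 0.28, edgeR adjusted p = 1.33e-06), H2-K1 by 3.27 (SE 0.27, adjusted p = 8.26e-07), H2-D1 by 2.27 (SE 0.23, adjusted p = 3.80e-06) and Tapbp by 2.08 (SE 0.45, adjusted p = 0.00854). Each was higher in both animals, with no overlap of the 2 DC III libraries and the 4 others. Tap1 and Nlrc5, which were not called, had no overlap either. The share of all genes that separate in this way was not counted, so the lack of overlap is a description only. In the female, 1 DC III cell gave 35.4% of the B2m reads, and 35.3% of the H2-K1 reads.

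The other 6 genes had positive log2 fold changes in DC III but did not pass, among them Tap1 at 2.79 (SE 0.93, adjusted p = 0.0733), Psmb9 at 1.5 (SE 0.55, adjusted p = 0.101) and Nlrc5 at 3.05 (SE 1.69, adjusted p = 0.297). The median over the 10 genes was 2.17, and over all genes tested it was -0.41. With DESeq2, 7 members were called, all of them and 8.26% of all genes higher. With limma-voom and weights per subtype 6 were called, where 3.59% of all genes were higher, but B2m (adjusted p = 0.0894) and H2-D1 (adjusted p = 0.154) were not. H2-K1 and Tapbp passed under each of the alternative settings listed in the closing section.

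DC I and DC II overlapped in the levels of B2m, H2-K1, Psmb10 and Nlrc5, and DC I lay above DC II without overlap for the other 6 genes. The share of all genes that separate in this way was not counted, so the 6 are a description and no result about the members. H2-K1 was at 1346 and 1097 CPM in DC I and at 1519.5 and 1058 CPM in DC II, and B2m at 1339.8 and 2002 CPM against 1719 and 1667 CPM. H2-D1 was at 3010 and 2319 CPM in DC I and at most 2209 CPM in DC II. Psmb8 was at 1418 and 1953 CPM in DC I against 346.5 and 852.6 CPM in DC II, Psmb9 at 536 and 851 CPM against 171.3 and 203.8 CPM, and Tap1 at 268.5 and 359.9 CPM against 31.7 and 50.4 CPM. Tap2 was at 196.2 and 108.4 CPM against 78.3 and 22.4 CPM, and Tapbp at 513 and 478 CPM against 433 and 272.7 CPM. No member passed the adjusted test in edgeR, where 0.244% of genes were called. The unadjusted p was under 0.05 for 3 members, where it was for 8.97% of all genes: Psmb8 (log2 fold change 1.66, SE 0.49, adjusted p = 0.288), Psmb9 (2.04, SE 0.69, adjusted p = 0.396) and Tap1 (3.09, SE 1.21, adjusted p = 0.477). DESeq2 called Psmb8 and Psmb9, with 7.25% of all genes called, and limma-voom called 0 members. The fitted difference in H2-K1 was 0.05 (SE 0.32) and in B2m 0.13 (SE 0.33).

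Reads of another cell type were present in the male DC I library: the epithelial markers Sftpc, Epcam and Krt8 summed to 10789.5 CPM, against 60.2 CPM in the female and 0.379 to 90.8 CPM in DC II and DC III. The mesenchymal markers were at 0 in both DC III libraries. Over the series, 5 of 1182 cells had 1% or more of their reads in markers of endothelial, epithelial, mesenchymal and red blood cells, and the 1 such DC I cell, in the male, reached 22.6%. The cells were kept. Without them the male DC I library had 2083 CPM of B2m and 2032 CPM of Psmb8, and the fits still called 4 members in DC III against DC I and DC II and 0 in DC I against DC II.

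**Figure D3:**
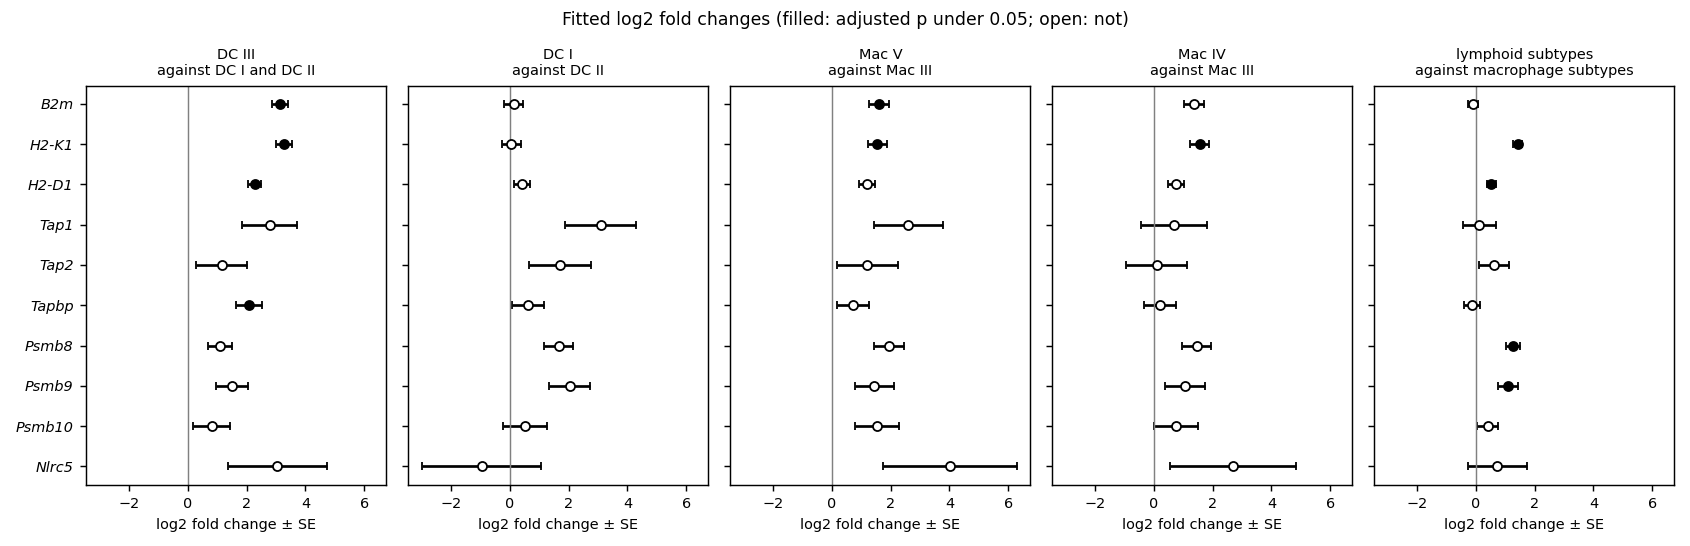
Fitted log2 fold change with its SE (x axis) for the 10 genes (y axis) in 5 comparisons; filled points have an adjusted p under 0.05. B2m, H2-K1, H2-D1 and Tapbp are filled in the DC III panel, and no point is filled in the panel of DC I against DC II.

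Among genes that act with these 10, DC III also had more of the proteasome activator PA28, whose subunits Psme1 and Psme2 help release peptides. Psme2 was at 696 and 875 CPM in DC III against 129.3 and 136.8 CPM on average in the other 2 (log2 fold change 2.98, SE 0.52, adjusted p = 0.00135), and Psme1 at 1602 and 1881 CPM against 512 and 638 CPM (2.11, SE 0.38, adjusted p = 0.00168). These were the 2 of 19 standard proteasome and activator genes that passed, with a list median of 0.58. Of the 12 partners of loading and trimming 0 passed. Of 15 other class I and class I-like genes 3 rose and 0 fell, with a list median of 2.23. Of these H2-M2 was at 2253 and 725 CPM in DC III and had no read in DC I or DC II, and H2-Q7 was at 1034 and 1250.0 CPM against 37.1 and 22.7 CPM (adjusted p = 0.0178). The H2-Q7 call held in only 2 of 6 cases with a library left out, and those of Psme1, Psme2 and H2-M2 in 6 of 6.

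Of 17 regulators of class I genes only Irf1, an interferon-induced transcription factor, passed: it was at 1144 and 2242 CPM in DC III against 52.7 and 165.1 CPM (log2 fold change 4.51, SE 0.88, adjusted p = 0.00362). Of 24 interferon receptor and response genes 1 rose and 1 fell. Gbp2, an interferon-induced GTPase, was at 237.1 and 122.6 CPM against 87.3 and 6.33 CPM on average (adjusted p = 0.0412). Gbp2 was at 0 CPM in DC I, so these averages came from DC II alone, which had a mean of 93.6 CPM. Its level in the female DC II library was above that in the male DC III library, so DC III and DC II overlapped. The Gbp2 call held under 9 of 11 alternative settings, but ended when any of the 6 compared libraries was left out. Ifngr1, a chain of the interferon gamma receptor, was at 62.7 and 26.1 CPM against 833 and 517 CPM (adjusted p = 0.00815). Ly75, the uptake receptor DEC-205, rose from 15.8 and 60.2 CPM to 750.3 and 542 CPM (adjusted p = 0.0189) and was the only one of 9 cross-presentation genes called. Of those 9, Cybb, the NADPH oxidase subunit, was the one that separated DC I, with 0 reads, from DC II, at 677 and 582 CPM (adjusted p = 0.0144). With limma-voom the calls of Ifngr1 (adjusted p = 0.474) and Cybb (adjusted p = 0.949) were lost. With a library left out, the call held in 6 of 6 cases for Irf1, 5 of 6 for Ifngr1, 2 of 6 for Ly75 and 2 of 4 for Cybb.

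Macrophage subtypes were compared with Mac III, which expressed the alveolar macrophage genes Car4, Ear1 and Marco. Mac V, which expressed Plac8, Ly6c2, Ace and Treml4, was higher for 2 members, where 0.314% of genes were called higher. B2m was at 4448 and 4813 CPM in Mac V against 1677 and 1490.2 CPM in Mac III (log2 fold change 1.60, SE 0.34, adjusted p = 0.0380), and H2-K1 at 1682 and 1279.8 CPM against 592 and 464 CPM (1.55, SE 0.32, adjusted p = 0.0356). Psmb8, at 499.7 and 477 CPM against 145.6 and 117.2 CPM, had no overlap but an adjusted p of 0.101. All 10 log2 fold changes were positive, with a median of 1.54 against -0.14 over all genes. The calls ended when any of the 4 libraries was left out. They also ended with only the cells whose titles hold the code DC35 (0 members). The fit of these subtypes alone called 5 members, where it called 5.25% of all genes higher. With limma-voom 8 were called, where 8.21% of all genes were called higher.

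Mac IV, which expressed C1qa, C1qb, C1qc and Apoe, was higher than Mac III for H2-K1, at 1548 and 1654 CPM (log2 fold change 1.56, SE 0.32, adjusted p = 0.0447), where 0.212% of genes were called higher. B2m in Mac IV was at 3708 and 4568 CPM and did not pass (1.35, SE 0.34, adjusted p = 0.130). This call too was lost when any of the 4 libraries was left out. Of the pathway lists, the 1 gene called in either comparison was Ly75, at 473 and 468 CPM in Mac III and 3 reads in all of Mac V. The Ly75 call held under 11 of 11 alternative settings, but ended when any of the 4 compared libraries was left out.

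B, T, NK and IL cells were compared as a group with Mac II to Mac V, as the mean of the subtypes' log2 levels. H2-K1 (log2 fold change 1.42, SE 0.16, adjusted p = 3.71e-06), Psmb8 (1.26, SE 0.24, adjusted p = 0.000996), Psmb9 (1.09, SE 0.33, adjusted p = 0.0238) and H2-D1 (0.53, SE 0.14, adjusted p = 0.00854) were higher in the lymphoid subtypes, and 4.76% of genes were called higher. B2m did not pass (fitted log2 fold change -0.10, SE 0.17, adjusted p = 0.798), and its sign is not settled, since the means of log2 CPM before scaling were higher in the lymphoid subtypes by 0.19 and 0.11. For all 10 genes, the 4 called ones included, the range over the lymphoid libraries overlapped that over the macrophage libraries. H2-K1 spanned 1626 to 5741 CPM in the lymphoid libraries and 463.6 to 1682 CPM in the macrophage libraries. The NK cell libraries, with 5 and 7 cells, also held T cell marker reads. Without NK cell the count of members called was again 4, where 4.58% of all genes were called higher. With B cell and T cell alone it was 3, without H2-D1 (adjusted p = 0.229), where 4.86% were called higher. Psmb9 lost its call in 8 of 16 cases with a library left out (Mac II, Mac III, B cell or T cell of the male, or Mac IV, Mac V, NK cell or IL cell of the female), and H2-D1 with limma-voom (adjusted p = 0.730).

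Of all genes 16.6% were called lower in the lymphoid subtypes, so genes called lower were common in this comparison. Tapbpl, a peptide editor related to tapasin, was at 142.9 and 171.6 CPM in the lymphoid subtypes against 39.1 and 13.5 CPM (adjusted p = 0.0286), and Canx, a chaperone of the heavy chain, at 467 and 457 CPM against 582 and 618 CPM (adjusted p = 0.0349). These were the 2 of 12 loading partners called. H2-Q7 was at 171.3 and 121.1 CPM against 13.8 and 5.43 CPM (adjusted p = 0.000186). Fcgrt, the Fc receptor heavy chain that pairs with beta-2 microglobulin, was at 18.5 and 28.8 CPM against 592 and 537 CPM (adjusted p = 0.000173), and Hfe, which pairs with it too, at 1.89 and 2.14 CPM against at least 121.9 CPM in each animal (adjusted p = 0.000720). Of 15 such class I-like genes 2 rose and 3 fell. Of 9 class I receptors tested 1 rose and 3 fell, with Klrk1 (NKG2D) higher by 4.19 on the log2 scale (SE 1.20, adjusted p = 0.0166) and Pirb, an inhibitory receptor, at 47.9 and 10.1 CPM against 248.1 and 204.7 CPM. Without NK cell, the calls of Tapbpl (adjusted p = 0.126), Canx (0.0786) and Klrk1 (0.148) were lost, and with B cell and T cell alone those of Fcgrt (0.101) and Hfe (0.0781) as well.

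In each comparison of granulocytes 1 heavy chain gene passed. Mast cells had less H2-D1 than basophils, at 1413 and 1522 CPM against 2919 and 3201 CPM (log2 fold change -1.26, SE 0.28, adjusted p = 0.0184), and 0.724% of genes were called lower. B2m went the other way, at 1644 and 2115 CPM against 725 and 980.2 CPM, and did not pass (0.93, SE 0.34, adjusted p = 0.169). Neutrophils had less H2-K1 than Mac V, at 426.4 and 337.3 CPM against 1682 and 1279.8 CPM (-1.53, SE 0.32, adjusted p = 0.0377), where 0.288% of genes were called lower. H2-D1 in neutrophils, at 2508 and 2363 CPM against 4323 and 3495 CPM, did not pass (-0.26, SE 0.27, adjusted p = 0.783). The fit scales the libraries, and the CPM given here are from before that scaling. On that unscaled level the log2 differences were -0.79 and -0.56 for H2-D1, and -1.98 and -1.92 for H2-K1. The neutrophil call ended when any compared library was left out, and both calls ended in the fit of the compared subtypes alone. The H2-D1 call ended without either mast cell library or the male basophil library. Without the female basophil library its adjusted p was 0.0524 with the dispersion trend of the full fit and 0.0445 with the trend estimated again. Red blood cell markers reached 5029 CPM in the male neutrophil library and 1650.5 CPM in the female basophil library, and without the cells that held them 1 member was called in each comparison, as with them.

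The share of immunoproteasome among catalytic subunits was followed as reads of Psmb8, Psmb9 and Psmb10 over reads of Psmb5, Psmb6 and Psmb7. Since the genes differ in length, the ratio is compared only between subtypes. The summed ratio was highest in DC III (3.88 and 5.07) and DC I (4.03 and 4.24) and lowest in Mac III (0.452 and 0.363). Mac III differed on both sides: it had the lowest Psmb8, and its Psmb5 level, a mean of 237.3 ± 26.4 CPM (SD, n = 2), was second only to that of IL cell. DC II was at 0.984 and 2.48, so the animals were further apart there than DC I was from DC III. Neutrophils, which had the lowest means of Psmb5, Psmb6 and Psmb7, were at 2.81 and 2.26. The mean of DC III was 11 times that of Mac III. The 3 pairs of subunits did not share this order. Psmb9 over Psmb6 had its highest means in DC III (2.22) and DC I (1.98) too, but its lowest in mast cell (0.0925), next to Mac III (0.106). Psmb8 over Psmb5 had its highest mean in DC III (24.3 and 8.81) and its lowest in Mac III (0.666 and 0.458). Psmb10 over Psmb7 was at 2.34 and 3.25 in Mac III, against 2.03 and 2.59 in DC I and 1.53 and 4.40 in DC III, and its highest mean was in NK cell (19.4 and 4.50). The female NK cell ratio rests on few cells: at equal depth 2 of 5 cells passed for Psmb10 and 1 of 5 for Psmb7.

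**Figure D4:**
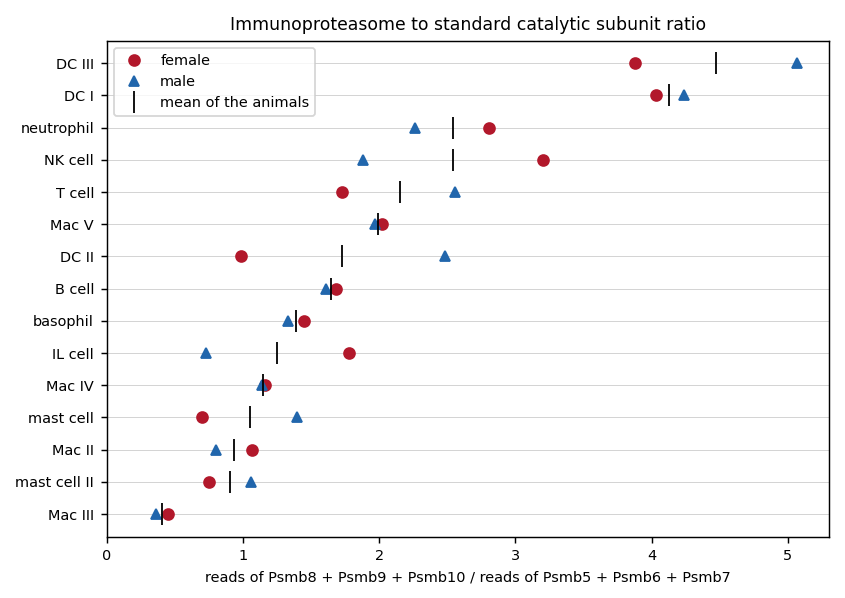
Ratio of immunoproteasome to standard catalytic subunit reads (x axis) in 15 subtypes (y axis), with points for the animals and a bar for their mean. DC III and DC I lie between 3.88 and 5.07, and Mac III at 0.452 and 0.363.

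Over the 30 libraries the genes followed each other to different degrees, described here without a test, since libraries share animals and subtypes. Pearson's r of log2 levels was 0.88 for Psmb8 with Psmb9, 0.80 for H2-K1 with H2-D1 and 0.72 for Tap1 with Psmb9, and 0.05 for Tap2 with Psmb10. Of 7111 genes with a mean of at least 20 CPM, the 3 most like the immunoproteasome genes were Psme2b (r = 0.82), Psme2 (0.79) and Psme1 (0.78). Psme2b and Psme2 also led for Nlrc5 (0.80 and 0.77), Rnaset2a (0.76) for B2m, and Gpr132 (0.84) for the mean of Tap1, Tap2 and Tapbp. Each of the 5 genes named by this rule for each of the 4 was highest in DC III. Psme2b is a close copy of Psme2, so how reads were split between them is uncertain.

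Between single cells, correlations were computed in Mac III, Mac IV, Mac V and neutrophils. The class I molecule genes B2m, H2-K1 and H2-D1 varied together in Mac V, with Spearman's rho of 0.54 to 0.57 in the female (66 cells) and 0.57 to 0.66 in the male (45 cells), and in Mac IV, with 0.43 to 0.51 (63 cells) and 0.56 to 0.73 (79 cells). At equal depth the same pairs were at 0.52 to 0.63 in Mac V and 0.41 to 0.74 in Mac IV. In Mac III (390 cells in all) these pairs were at 0.08 to 0.30, and in neutrophils at 0.15 to 0.37. Over all 45 pairs of the 10 genes the median rho lay between -0.01 and 0.21 in these subtypes and animals. These cells share their animal, and low values in sparse counts are no finding.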

How the data were processed

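The deposited table holds raw read counts per gene and cell; per the submitters' processing notes STAR 2.5.2b and HTSeq 0.10 were used, and the notes name the human build GRCh38 for these mouse samples, so the build behind the counts is uncertain. Whether strand was used is not given in the sources used here. Subtype names and animals are the authors' labels, deposited with the cells; a doublet treatment is not given in the sources used here, and none was applied. The 1183 cells were summed by subtype and animal, leaving out the 1 Mac I cell. edgeR 4.0.16 (TMM factors, filterByExpr, quasi-likelihood test, 15600 genes, Benjamini-Hochberg adjusted p under 0.05) fitted all 30 libraries in one design. It was tested on simulated data, where most of the added changes were not called. When a library was left out, the negative binomial trend was kept from the full fit. limma 3.58.1, DESeq2 1.42.0 and other settings were alternatives. The members, gene lists and tests were chosen with earlier results of these data known. Named genes are the members, Psmb5, Psmb6 and Psmb7, called list genes with the largest fold changes and at least 50 CPM, up to 2 in each direction, and the 5 genes most like each member group. Labels tie libraries to 2 animals, which pairs the subtypes: over 105 pairs of subtypes, the differences between the animals correlated with a median r of 0.08 (-0.03 to 0.24). Nothing says the animals were from separate litters, so p-values speak for these 2 animals only. They rest on a spread between the animals that is estimated over all subtypes together. That spread also holds the variation from the cells sampled into each library.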

Additional observations from a re-analysis of the deposited data

Results flagged for a closer look

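In 10 of the gene and comparison pairs the animals went in opposite directions; with 1 library of each subtype per animal, the difference between the animals was not tested. For B2m in DC I against DC II, the log2 difference was -0.36 in the female and 0.26 in the male. For H2-K1 in DC I against DC II, the log2 difference was -0.18 in the female and 0.05 in the male. For Psmb10 in DC I against DC II, the log2 difference was 1.40 in the female and -0.32 in the male. For Nlrc5 in DC I against DC II, the log2 difference was -5.32 in the female and 2.32 in the male. For Tap2 in Mac IV against Mac III, the log2 difference was 0.62 in the female and -0.59 in the male. For Tap1 in lymphoid subtypes against macrophage subtypes, the log2 difference was 0.73 in the female and -1.09 in the male. For Tapbp in lymphoid subtypes against macrophage subtypes, the log2 difference was -0.10 in the female and 0.32 in the male. For Nlrc5 in lymphoid subtypes against macrophage subtypes, the log2 difference was 2.24 in the female and -1.67 in the male. For Psmb10 in mast cell against basophil, the log2 difference was -0.48 in the female and 2.49 in the male. For Nlrc5 in mast cell against basophil, the log2 difference was 0.11 in the female and -0.07 in the male. None of these 10 passed the adjusted test. 

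The single Mac I cell entered no comparison. It held 7 of the 10 genes above the level of 3 reads. On the scale of log2 of CPM + 1, B2m was at 11.78, H2-K1 at 9.69, H2-D1 at 10.68, Tapbp at 7.67, Psmb8 at 8.59, Psmb9 at 7.32 and Psmb10 at 7.75. Tap1, Tap2 and Nlrc5 had 0 reads in it, which allows up to 1.23 CPM for counting error only.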

How the results depend on the processing

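Counts of the 10 members called were computed under up to 13 settings and with each library left out. With the animal as replicate block the counts were 8 among the 15 subtypes, 4 for DC III, 0 for DC I against DC II, 3 for Mac V, 1 for Mac IV, 4 for lymphoid subtypes, 1 for mast cell and 1 for neutrophil, so the pairing moved only that of Mac V, from 2 to 3. DESeq2 called 7 members in DC III, 2 in DC I against DC II, 4 in Mac V, 4 in Mac IV and 2 in neutrophil. limma-voom called 8 in Mac V, 4 in Mac IV, 2 in lymphoid subtypes and 0 in neutrophil. Fits of the compared subtypes alone called 5 in Mac V, 3 in Mac IV, 0 in mast cell and 0 in neutrophil. DESeq2 called 24.7% of all genes in DC III, 7.25% in DC I against DC II, 5.68% in Mac V, 3.12% in Mac IV and 8.92% in neutrophil. For limma-voom the shares were 16.5% in Mac V, 14.9% in Mac IV, 32.4% in lymphoid subtypes and 5.40% in neutrophil. With only the cells whose titles hold the code DC35, the counts were 0 in Mac V, Mac IV, mast cell and neutrophil. Both male CD45 plates carry this code, while the first female plate carries another, so code and animal are partly tied. What the code stands for is not given in the labels used here. RLE factors, and likewise no filter, gave 1 in Mac V and 0 in neutrophil. For these settings, the code DC35 and the animal block, shares of all genes are not given here. With a library left out, the counts were 7 to 9 among the 15 subtypes, 4 to 5 for DC III, 0 to 0 for Mac V, Mac IV and neutrophil, 0 to 1 for mast cell (1 without the female basophil library when the dispersion trend was estimated again, 0 with the trend of the full fit), and 3 to 4 for lymphoid subtypes. Without the female NK cell library, Tap1 was lower in lymphoid subtypes, with a log2 fold change of -1.92 (edgeR adjusted p = 0.00166; range with a library left out -1.92 to 0.35), while the male NK library held 0.166 CPM. The cause of these differences was not tested. Of the 20 genes most like the members, 11 were shared with the ranking by Spearman's rho and 11 with that by subtype means. Leaving out NK cell, B and T cells alone, leaving out the 5 cells with markers of other types, and estimating the trend again were chosen after seeing the data. With 2 animals, a member that did not pass is not shown to be equal.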
